A study of Mus musculus with 8 samples.

Results

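The genes described here are 50 cell cycle genes taken from a symbol list in 3 groups, measured in tissue from below and above the dorsal aorta of mouse embryos at embryonic day 12.5. The list holds 24 G1/S and replication genes, 20 mitotic genes, and 6 inhibitors and pocket proteins, the family of the retinoblastoma protein. Of these, 49 were found among the 24675 named genes of the array table and 48 passed the filter on low values, which kept 12416 genes. Ccnb1 was not analysed here, and Cdkn2c, the inhibitor p18, passed the array median on 2 of 8 arrays and was not tested.

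Ventral tissue, from under the aorta, and dorsal tissue, from between notochord and aortic roof, were laser microdissected from the same unfixed C57Bl/6 embryos and measured on 4 arrays each (Affymetrix mouse Gene 2.0 ST). No transgene, deletion or treatment is named for either tissue. The labels do not say how many embryos an array stands for or whether a replicate number marks 1 embryo. The spread behind each p-value is that of the ventral minus dorsal differences over the 4 replicate numbers, moderated over genes in the fit. It is not shown to be the spread between embryos. RNA amounts of 200 to 1000 pg were amplified before hybridisation. Values are log2 RMA intensities, a scale on which 1 unit is a doubling of signal, and every difference is ventral minus dorsal. Array medians lay between 3.59 and 3.65, and precision is limited by there being 4 arrays a tissue. The dissections are mixed tissue, so a lower value can mean fewer cycling cells or less of the transcript per cell, and these cannot be told apart.

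Proliferating cells copy their DNA in S phase and divide in M phase. In G1, D-type cyclins with their kinases phosphorylate the pocket proteins Rb1, Rbl1 and Rbl2, which frees E2F factors to switch on cyclin E and the genes of DNA replication. Genes needed in G2 and mitosis come on later, through complexes that bind a promoter element called the cell cycle genes homology region (CHR) and through NF-Y at CCAAT boxes. Inhibitors such as Cdkn1a (p21), Cdkn1b (p27) and Cdkn2c hold the kinases back. At this stage the tissues next to the aorta are still growing, and the sclerotome above it is forming vertebrae.

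The promoters of the members differed by phase. Some are printed here because most mitotic members with an entry shared a promoter make-up. Whether it is linked to their values over the arrays was not tested. RefSeq start sites on GRCm38.p6 were found for 40 of the 50 members, in windows from 250 bases before to 50 bases after the start, 38 of them among the 48 tested members. Both strands were searched for the E2F sites TTTCCCGC, TTTGGCGC, TTTCGCGC and TTTGCCGC, the CHR elements TTTGAA and TTCGAA, and CCAAT. The letters TTCGAA read the same on both strands, and the E2F site TTTGGCGC can overlap TTTCGCGC on the other strand. A CHR element lay in 13 of 16 start sites of mitotic members (81.2%), against 3 of 21 of the G1/S members (14.3%), 19.2% of all 32851 start sites and 14.2% of those of the genes tested. All 13 also held CCAAT, and a window with both was found at 7.52% of all start sites. E2F sites lay in 8 of 21 start sites of G1/S members (38.1%) and in 1 of 16 of mitotic members (Cdk1). They lay in 2.26% of all start sites and in 3.93% of those of the genes tested. CCAAT was common, in 37.4% of all start sites, 37.9% of those of the genes tested and 61.9% of those of G1/S members. The tested mitotic members with an entry but no CHR match in this window were Cenpe, Birc5 and Nusap1. These are matches of letters and not shown binding sites.

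**Figure D1:**
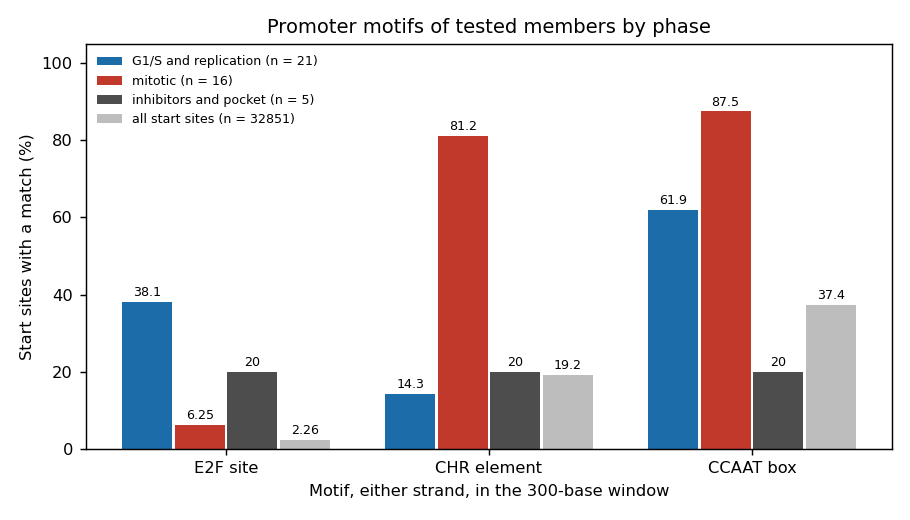
Share of start sites (%, linear axis from 0) with at least 1 match on either strand in the 300-base window, for the tested members of each phase group and for all start sites. The mitotic members stand at 81.2% for CHR and 87.5% for CCAAT, and the G1/S members at 38.1% for E2F.

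The windows printed are those of the 4 members with the smallest p that held the motif of their phase (Mki67, Kif23, Mcm7 and Cenpf), with Mcm6 and Cdc20, chosen after their values were seen because they ran against Mcm7 and against the other mitotic genes. Capitals mark CHR elements and CCAAT boxes in Mki67, Kif23, Cenpf and Cdc20, and E2F sites and CCAAT boxes in Mcm7 and Mcm6, on either strand, so that ATTGG is CCAAT on the other strand. All 6 genes lie on the minus strand of the build and are printed 5′ to 3′ along the gene.
Mki67: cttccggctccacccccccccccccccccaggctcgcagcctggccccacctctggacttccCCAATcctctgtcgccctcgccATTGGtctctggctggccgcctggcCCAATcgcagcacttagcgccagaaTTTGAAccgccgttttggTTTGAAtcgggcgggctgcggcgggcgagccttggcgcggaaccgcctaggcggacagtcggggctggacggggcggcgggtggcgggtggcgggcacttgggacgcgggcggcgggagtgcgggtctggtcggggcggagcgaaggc
Kif23: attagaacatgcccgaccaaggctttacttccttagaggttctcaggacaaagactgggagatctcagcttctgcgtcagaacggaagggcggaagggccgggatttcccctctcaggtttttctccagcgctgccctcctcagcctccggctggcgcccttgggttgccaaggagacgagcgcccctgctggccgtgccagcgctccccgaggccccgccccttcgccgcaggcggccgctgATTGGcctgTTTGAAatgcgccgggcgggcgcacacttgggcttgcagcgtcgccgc
Cenpf: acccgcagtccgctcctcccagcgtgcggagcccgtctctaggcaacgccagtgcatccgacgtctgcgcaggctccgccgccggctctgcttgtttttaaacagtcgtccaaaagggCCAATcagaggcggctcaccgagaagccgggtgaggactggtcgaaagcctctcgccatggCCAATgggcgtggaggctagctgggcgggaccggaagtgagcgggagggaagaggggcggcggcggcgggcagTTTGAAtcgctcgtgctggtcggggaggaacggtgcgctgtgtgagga
Cdc20: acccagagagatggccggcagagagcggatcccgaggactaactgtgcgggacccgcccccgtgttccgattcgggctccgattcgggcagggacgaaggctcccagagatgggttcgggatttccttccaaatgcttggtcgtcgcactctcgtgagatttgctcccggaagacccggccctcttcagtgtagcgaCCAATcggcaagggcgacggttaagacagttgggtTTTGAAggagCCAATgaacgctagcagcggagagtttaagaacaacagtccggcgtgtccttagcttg
Mcm7: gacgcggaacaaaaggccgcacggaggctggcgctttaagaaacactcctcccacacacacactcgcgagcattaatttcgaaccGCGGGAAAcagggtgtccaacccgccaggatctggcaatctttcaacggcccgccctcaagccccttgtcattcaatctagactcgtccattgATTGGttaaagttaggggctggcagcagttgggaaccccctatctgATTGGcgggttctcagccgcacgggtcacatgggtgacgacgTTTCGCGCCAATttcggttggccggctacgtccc
Mcm6: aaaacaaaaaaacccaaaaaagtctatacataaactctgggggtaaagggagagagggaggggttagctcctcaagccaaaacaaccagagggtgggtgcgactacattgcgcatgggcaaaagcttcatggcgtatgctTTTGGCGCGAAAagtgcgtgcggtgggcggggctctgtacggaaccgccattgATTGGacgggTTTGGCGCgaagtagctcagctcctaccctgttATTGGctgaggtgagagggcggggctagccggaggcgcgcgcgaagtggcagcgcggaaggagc
The Mki67 window is chr7:135716330-135716629, with TTTGAA beginning at -116 and -98 from the start and CCAAT at -188, -166 (other strand) and -141. In Kif23 (chr9:61946750-61947049) and Cenpf (chr1:189688037-189688336) the letters TTTGAA begin at position 3 of the transcript. Cdc20 (chr4:118437294-118437593) holds TTTGAA at -18 between CCAAT boxes at -53 and -8, so it holds both motifs of its group. The Mcm7 window (chr5:138171834-138172133) is the first of 2 start sites and has E2F sites at -165 (other strand) and 17, the second ending on the first base of a CCAAT box at 24. This window also holds the CHR letters TTCGAA, left in lower case before the first E2F site. Mcm7 thus has CHR and CCAAT matches too, as most mitotic members do. In Mcm6 (chr1:128359656-128359955) TTTGGCGC stands at -110 and -47, and TTTCGCGC overlaps the first of these on the other strand.

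Markers of other cell types set some arrays apart, and their part in the differences given below was not tested. Markers of liver parenchyma averaged 5.50 in ventral array 4 against 3.10 to 3.20 in ventral arrays 1 to 3, and 7.06 in dorsal array 4 against 3.17 to 3.26 in dorsal arrays 1 to 3, over 7 genes. Alpha-fetoprotein (Afp) read 9.69 in ventral array 4 and 10.62 in dorsal array 4. Erythroid markers averaged 6.97 in ventral array 4 against 6.00 to 6.42 in the other ventral arrays, and 8.43 in dorsal array 4 against 5.97 to 6.15 in the other dorsal arrays, over 9 genes. Number 4 was also where mitotic genes were highest in ventral tissue and where 12 of 19 mitotic members were not lower in ventral tissue. Dorsal array 4, with the higher liver and erythroid means, was the highest dorsal array for only 3 of 19 mitotic members. Its mean over the mitotic members was 7.62, against 7.63 and 7.65 in dorsal arrays 2 and 3. Neural progenitor markers averaged 4.92 in dorsal array 1 against 3.32 to 3.62 in the other dorsal arrays over 11 genes. Fabp7 (11.18), Sox2 (7.83), Zic1 (6.72) and Nes (5.66) were high in dorsal array 1, while Sox3 (3.39) and Dbx2 (3.18) had their lowest value there. The median deviation of the list from each gene's own mean was only 0.10 in that array. Sox1, Pax6 and Olig2 were above the median on no array. Dorsal array 1 was the lowest dorsal array for most mitotic members.

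Between the tissues, sclerotome and cartilage markers averaged 4.56 to 4.80 in ventral arrays against 5.66 to 6.71 in dorsal arrays over 12 genes, with Matn1 above the median on no array. Pax1 and Pax9, which define the sclerotome, read 3.36 to 3.91 and 4.15 to 4.94 in ventral tissue against 5.12 to 6.72 and 6.06 to 6.83 in dorsal tissue. Macrophage markers averaged 4.98 to 5.64 in ventral arrays against 4.51 to 4.96 in dorsal arrays over 12 genes. Smooth muscle markers averaged 4.89 to 5.93 in ventral arrays against 4.51 to 4.94 in dorsal arrays over 10 genes. Sympathoadrenal markers averaged 6.90, 4.37, 5.97 and 4.97 in ventral arrays 1 to 4 against 4.42 to 5.12 in dorsal arrays over 11 genes. They were thus highest in ventral arrays 1 and 3 and lowest in ventral array 2. Mesothelial markers averaged 4.57 to 5.23 in ventral arrays against 3.76 to 4.91 in dorsal arrays over 8 genes. Tcf21 had by far the widest difference of these (3.30), and Upk3b (-0.15) and Msln (-0.08) were lower in ventral tissue. Upk3b read 7.57 in dorsal array 4 against 3.74 to 4.15 in the other dorsal arrays. Endothelial markers averaged 4.63 to 4.99 in ventral arrays against 4.03 to 5.10 in dorsal arrays over 11 genes, with Esam and Cldn5 above the median on no array.

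**Figure D2:**
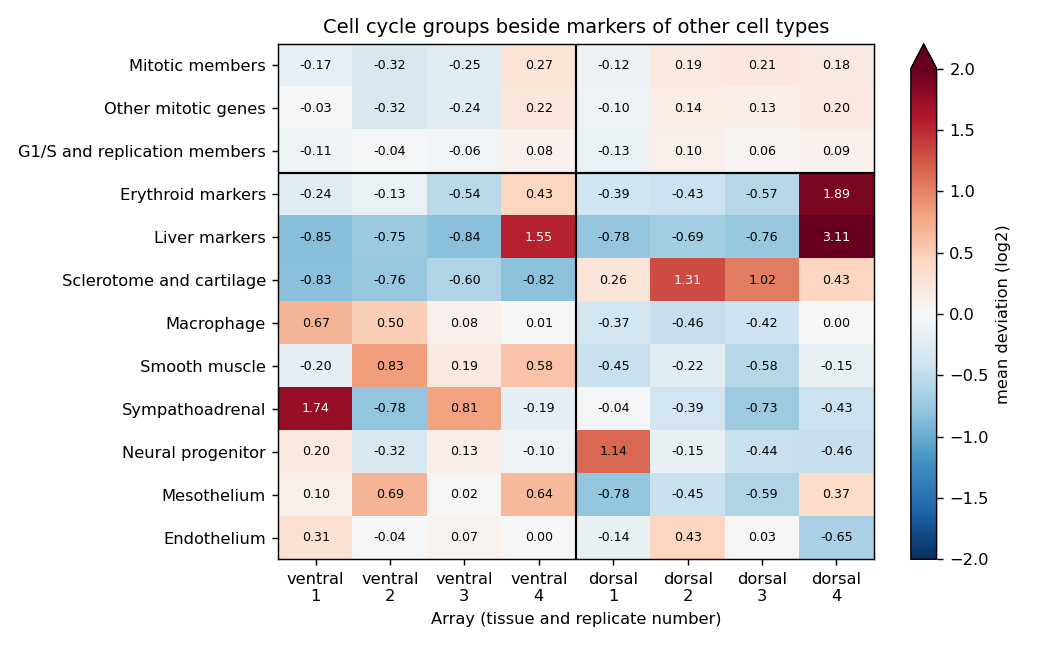
Mean deviation (log2) of cell cycle groups and of marker lists from each gene's mean over 8 arrays, in each ventral (left) and dorsal (right) array, with blue below and red above the mean; 1 cell exceeds the colour scale. Liver and erythroid markers stand out in number 4 of both tissues and sclerotome markers in all dorsal arrays. The neural progenitor mean stands out in dorsal array 1 through some of its genes. Sympathoadrenal markers are highest in ventral arrays 1 and 3.

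No member passed the test between the tissues, nor did any of the genes tested. In limma with the replicate number as a block, 0 of 48 tested members had an adjusted p under 0.05, higher or lower (0% of all 12416 genes in either direction), and the smallest adjusted p of a member was 0.343, that of Mki67. At an unadjusted p under 0.05 there were 6 members lower in ventral tissue (Mki67, Ccnd2, Rrm2, Kif23, Cenpf and Rb1), where 4.18% of all genes were so, and 1 higher (Mcm7), where 4.08% were so. The means of 35 of 48 members were lower in ventral tissue, beside 50.8% of all genes, and the median difference was -0.11 beside 0.00 over all genes. Differences ran from -0.72 (Rb1) to 0.46 (Mcm7), so that the widest of them is a 1.64-fold lower signal. With 4 arrays a tissue, a single number could weigh heavily. Leaving out 1 number moved the difference by over 1.5 times or turned its sign in 38 of the 48 members, and the other 10 were Mcm6, Mcm7, Cdc6, Gins1, Rrm2, Ccnd2, Mki67, Kif23, Cenpe and Cenpf. The same count was not made over all genes, and a difference near 0 meets this rule readily, so the count is not particular to the members.

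**Figure D3:**
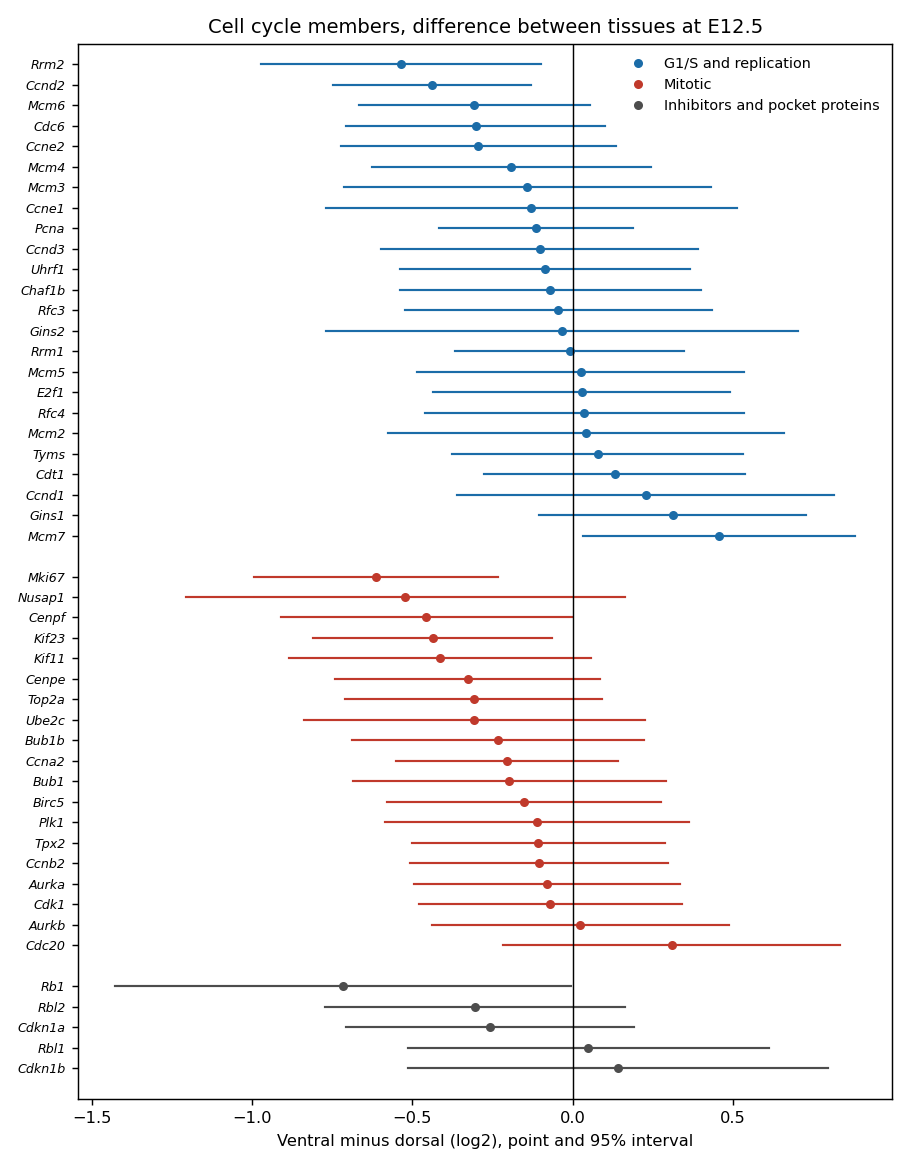
Ventral minus dorsal difference (log2) of the 48 tested members, with the point estimate and its 95% interval from limma, in 3 colours by phase group and sorted within each. Of the 19 mitotic members 17 lie left of 0, and 7 members have an interval that does not reach 0.

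Mitotic genes were the group most often lower in ventral tissue, with 17 of 19 tested members below 0, beside 50.8% of all genes. Their median difference was -0.20, against a median of 0.00 over all genes. The group was uneven across replicate numbers. All 19 were lower in ventral tissue in number 3 (median -0.39), and 17 of them in number 2 (median -0.47). Number 1 had 12 lower (median -0.08) and number 4 had 7 lower (median 0.16). Over all genes tested, 47.7 to 52.5% were lower in each number. The median was -0.13 without number 3 and -0.31 without number 4, and it stayed below 0 in both. Mitotic genes share a phase and much of their regulation, so their directions are not independent observations.

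The arrays behind this were few. Mean log2 levels of the 19 mitotic members were 7.28, 7.12, 7.20 and 7.72 in ventral arrays 1 to 4, against 7.32, 7.63, 7.65 and 7.62 in dorsal arrays 1 to 4. Ventral arrays 1 to 3 lay below all dorsal arrays, ventral array 4 lay above all of them, and the tissues overlapped. Ventral array 4 was the highest ventral array for 17 of 19 mitotic members, beside 25.4% of all genes. Dorsal array 1 was the lowest dorsal array for 16 of 19, beside 27.9% of all genes. G1/S members spread less over the arrays, with means of 6.53, 6.60, 6.58 and 6.72 in ventral arrays against 6.51, 6.74, 6.70 and 6.73 in dorsal arrays, and ventral array 4 and dorsal array 1 were again the highest ventral and lowest dorsal array.

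**Figure D4:**
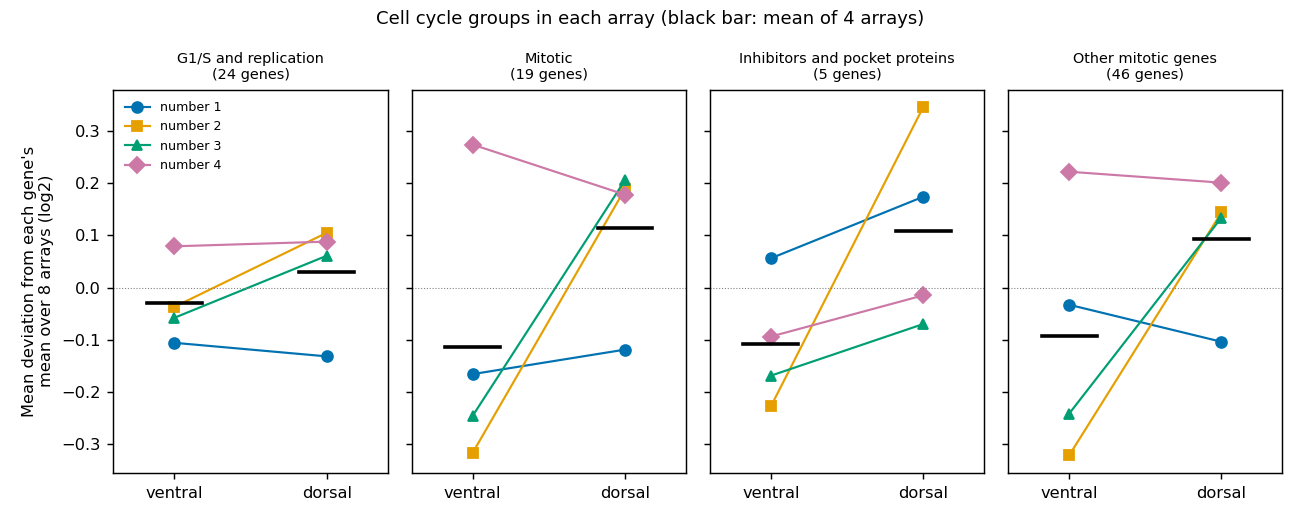
Mean over each group of the deviation from each gene's own mean over 8 arrays (log2), for ventral (left) and dorsal (right) arrays, with a line and symbol for each replicate number and a black bar for the mean of 4 arrays. In the mitotic members and in the 46 other mitotic genes number 4 is the highest ventral array and number 1 the lowest dorsal array, while the line of number 1 runs up to dorsal in the members and down in the other genes.

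Mki67, the antigen Ki-67 that coats mitotic chromosomes and marks cycling cells, had the smallest p of all members in the fit with the replicate block. Its log2 values were 7.98, 7.40, 7.71 and 8.41 in ventral arrays against 8.21, 8.34, 8.49 and 8.91 in dorsal arrays. The ventral array was the lower in each of the 4 numbers, although ventral array 4 lay above dorsal arrays 1 and 2. The difference was -0.61 (SE 0.16, adjusted p = 0.343), a 1.53-fold lower signal in ventral tissue. Its 95% interval ran from -0.995 to -0.233.

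The motors and kinetochore proteins followed. Kif23, a kinesin of the central spindle needed for cytokinesis, stood at 6.57, 6.47, 6.67 and 7.04 in ventral arrays against 6.89, 6.93, 7.30 and 7.37 in dorsal arrays, a difference of -0.44 (SE 0.16, adjusted p = 0.524). Cenpf, a kinetochore protein that appears in G2, stood at 6.55, 5.998, 6.48 and 6.78 in ventral arrays against 6.69, 6.84, 7.15 and 6.96 in dorsal arrays, and differed by -0.46 (SE 0.19, adjusted p = 0.599). Both were lower in ventral tissue in all 4 numbers with overlapping groups. Kif11, the kinesin that pushes spindle poles apart, was 7.28, 6.53, 6.97 and 7.38 in ventral arrays against 7.37, 7.55, 7.34 and 7.54 in dorsal arrays, and its difference of -0.41 (SE 0.20, adjusted p = 0.658) was -0.21 without number 2. For Cenpe, a kinetochore kinesin, the values were 7.09, 7.0, 7.19 and 7.63 in ventral arrays against 7.58, 7.51, 7.66 and 7.47 in dorsal arrays. Ventral array 4 exceeded dorsal array 4, and the difference was -0.33 (SE 0.18, adjusted p = 0.706). In all, 8 members were lower in ventral tissue in 4 of 4 numbers (Mki67, Kif11, Kif23, Cenpf, Mcm6, Rrm2, Ccnd2 and Rbl2), beside 8.46% of all genes, and none had all ventral arrays below all dorsal arrays, beside 2.38% of all genes.

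**Figure D5:**
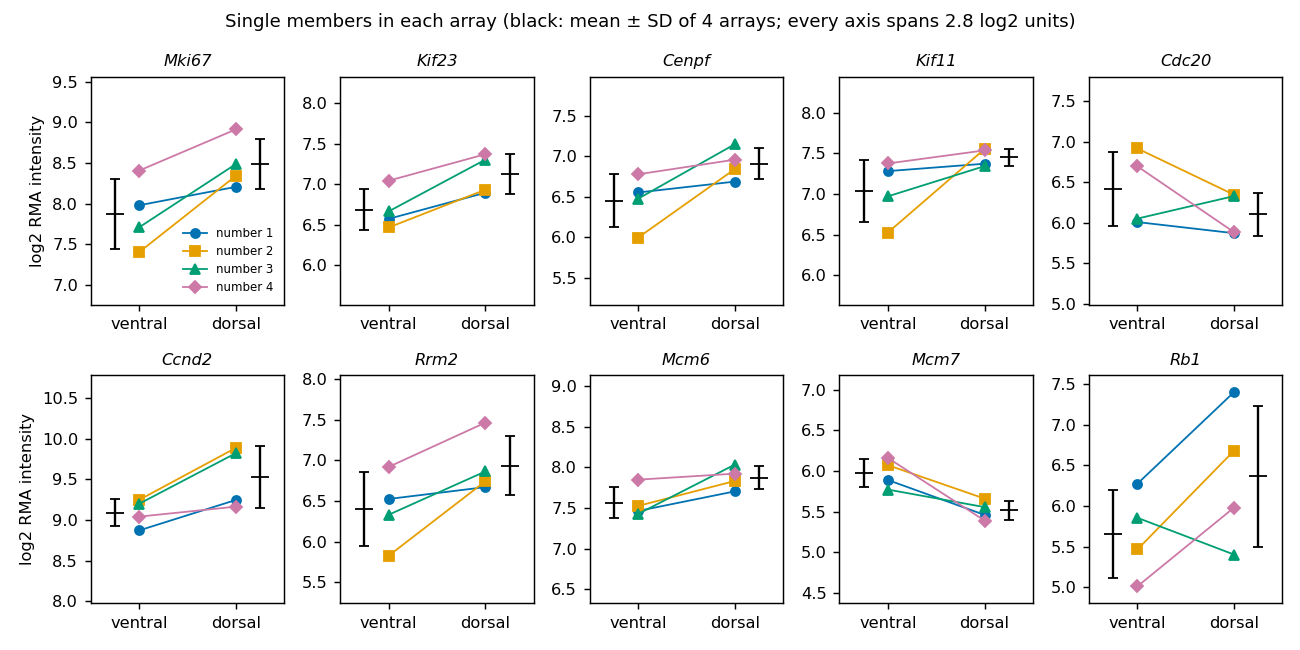
Log2 RMA intensity of 10 members in ventral (left) and dorsal (right) arrays, joined by replicate number, with the mean ± SD of 4 arrays in black, on axes of equal length. Mki67, Kif23, Cenpf, Kif11, Ccnd2, Rrm2 and Mcm6 were lower in ventral tissue in all 4 numbers, and Mcm7 was higher in all 4.

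Other mitotic members had smaller or less even differences. Nusap1, a spindle microtubule protein, differed by -0.52 (SE 0.29) but ranged over the numbers from -1.55 to 0.31. Top2a, the topoisomerase that untangles chromosomes, and Ube2c, a ubiquitin-conjugating enzyme of mitotic exit, each differed by -0.31, with ventral array 4 above dorsal array 4 in both. Without number 2 the difference was -0.19 for Top2a and -0.05 for Ube2c. Ccna2, the cyclin of S and G2 phase, differed by -0.20 (SE 0.15). The checkpoint kinases Bub1 and Bub1b differed by -0.20 and -0.23, and the survivin gene Birc5 by -0.15. Tpx2, Plk1, Ccnb2 and Aurka, which build or drive the spindle and mitotic entry, lay between -0.11 and -0.08.

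Cdk1 and Aurkb had the mitotic differences nearest to 0. Cdk1, the kinase that triggers mitosis, read 7.997, 7.99, 7.66 and 8.07 in ventral arrays against 7.65, 8.35, 8.03 and 7.96 in dorsal arrays. Its groups overlapped throughout, and the difference of -0.07 (SE 0.17, adjusted p = 0.955) had a 95% interval of -0.48 to 0.34. Aurkb, the kinase of the chromosomal passenger complex, differed by 0.02 (SE 0.20). Cdc20, an activator of the anaphase-promoting complex, was the mitotic member with the highest difference. Its values were 6.01, 6.92, 6.05 and 6.70 in ventral arrays against 5.87, 6.34, 6.33 and 5.88 in dorsal arrays, and it was higher in ventral tissue in 3 of 4 numbers, with a difference of 0.31 (SE 0.22, adjusted p = 0.783) that was 0.14 without number 4. Whether Cdc20 differs from the other mitotic members was not tested.

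Among the genes of the replication machinery no common direction was seen. Of 24 G1/S and replication members 15 were lower in ventral tissue, beside 50.8% of all genes, with a median difference of -0.06. It ranged from -0.13 without number 1 to -0.02 without number 3. By number, 10, 15, 15 and 9 of the 24 were lower in ventral tissue in numbers 1 to 4, so numbers 1 and 4 had more members higher than lower.

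The 6 subunits of the MCM helicase, which opens DNA at replication origins, had 3 lower and 3 higher. Mcm7 was the only 1 of 48 tested members whose ventral arrays all lay above its dorsal arrays, a share near the 2.01% of all genes. It read 5.89, 6.07, 5.77 and 6.16 in ventral arrays against 5.46, 5.66, 5.56 and 5.39 in dorsal arrays, a difference of 0.46 (SE 0.18, adjusted p = 0.578), a 1.37-fold higher signal. Mcm6, another subunit of the same ring, read 7.46, 7.53, 7.43 and 7.85 in ventral arrays against 7.70, 7.83, 8.03 and 7.92 in dorsal arrays, lower in ventral tissue in all 4 numbers, with a difference of -0.31 (SE 0.15, adjusted p = 0.671). Mcm2, also in the ring, spread widely at 6.78, 6.21, 6.63 and 6.69 in ventral arrays against 5.92, 6.94, 6.68 and 6.60 in dorsal arrays, with differences from -0.73 to 0.85 over the numbers and 0.04 (SE 0.26, adjusted p = 0.986) over all. Mcm4 and Mcm3 differed by -0.19 and -0.14, and Mcm5 by 0.03. Subunits of 1 complex thus had differences on both sides of 0, and a test of Mcm7 against the other subunits was not made.

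Differences of the loading and fork genes ran from -0.30 to 0.31. Gins1, part of the GINS complex that joins the helicase, was 5.35, 5.87, 5.58 and 5.82 in ventral arrays against 5.25, 5.62, 5.21 and 5.28 in dorsal arrays, higher in ventral tissue in all 4 numbers, with a difference of 0.31 (SE 0.18, adjusted p = 0.73). With Mcm7 it made 2 of 48 members higher in 4 of 4 numbers, a share below the 7.93% of all genes. Gins2, its partner, differed by -0.03 (SE 0.31). The origin loading factors Cdc6 and Cdt1 differed by -0.30 and 0.13. Cdc6 lay close to the array medians, at 3.70 to 4.44 in ventral arrays and 4.175 to 4.74 in dorsal arrays. Pcna, the sliding clamp of DNA polymerase, read 11.05, 10.81, 10.88 and 11.16 in ventral arrays against 10.95, 11.40, 10.87 and 11.13 in dorsal arrays. The groups overlapped, and its difference of -0.12 (SE 0.13, adjusted p = 0.883) had a 95% interval of -0.42 to 0.19. The clamp loader subunits Rfc3 and Rfc4, the histone chaperone Chaf1b and the methylation adaptor Uhrf1 lay between -0.085 and 0.037.

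Nucleotide supply split by gene. Rrm2, the subunit of ribonucleotide reductase made in S phase, stood at 6.52, 5.83, 6.33 and 6.92 in ventral arrays against 6.67, 6.74, 6.86 and 7.46 in dorsal arrays. It was lower in ventral tissue in all 4 numbers, with a difference of -0.54 (SE 0.18, adjusted p = 0.509). Rrm1, the larger subunit of the same enzyme, differed by -0.01 (95% interval -0.37 to 0.35), and thymidylate synthase (Tyms) by 0.08.

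The D-type cyclins, which answer growth signals in G1, did not share a direction. In the fit with the replicate block, Ccnd2 had the second smallest p of the members. It stood at 8.87, 9.25, 9.20 and 9.04 in ventral arrays against 9.25, 9.89, 9.82 and 9.16 in dorsal arrays, lower in ventral tissue in all 4 numbers, with a difference of -0.44 (SE 0.13, adjusted p = 0.428), a 1.36-fold lower signal. Dorsal arrays 2 and 3 were its highest. Ccnd1 stood at 7.49, 6.46, 7.36 and 6.32 in ventral arrays against 6.80, 6.90, 6.56 and 6.46 in dorsal arrays. Its ventral arrays 1 and 3 were above every dorsal array and ventral array 4 below every one, with a difference of 0.23 (SE 0.25, adjusted p = 0.875). Ccnd3 stood at 5.12, 5.17, 5.10 and 5.12 in ventral arrays against 5.76, 5.04, 4.82 and 5.30 in dorsal arrays, nearly flat in ventral tissue, with -0.10 (SE 0.21, adjusted p = 0.947). Cyclin E genes Ccne1 and Ccne2, which act at the G1/S switch, differed by -0.13 (SE 0.27) and -0.29 (SE 0.18). E2f1, an activating E2F factor, stood at 4.19, 4.56, 4.001 and 4.34 in ventral arrays against 4.36, 4.09, 4.45 and 4.08 in dorsal arrays, close to the array medians, with 0.03 (SE 0.20, adjusted p = 0.987).

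The inhibitors and pocket proteins gave no shared pattern over 5 tested genes, of which 3 were lower in ventral tissue (median -0.26), beside 50.8% of all genes. The median was -0.12 without number 2 and -0.17 without number 3. Rb1, the retinoblastoma protein, had the widest difference of all members. It read 6.27, 5.46, 5.86 and 5.01 in ventral arrays against 7.40, 6.68, 5.40 and 5.98 in dorsal arrays, a difference of -0.72 (SE 0.30, adjusted p = 0.601). Number 3 ran the other way (0.45), and without it the difference was -1.11. Rbl2 (p130), which forms repressor complexes in resting cells, read 4.44, 4.39, 4.74 and 4.73 in ventral arrays against 4.66, 5.24, 4.77 and 4.84 in dorsal arrays, lower in ventral tissue in all 4 numbers, with a difference of -0.30 (SE 0.20, adjusted p = 0.763) that was -0.12 without number 2. Rbl1 (p107) read 4.27, 4.59, 4.35 and 4.93 in ventral arrays against 4.32, 4.66, 4.88 and 4.10 in dorsal arrays, a difference of 0.05 (SE 0.24, adjusted p = 0.981).

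Cdkn1a, an inhibitor induced by p53, lay near the array medians at 4.29, 4.38, 3.78 and 3.80 in ventral arrays against 4.22, 4.28, 4.31 and 4.47 in dorsal arrays. Only numbers 3 and 4 were lower in ventral tissue, and the difference was -0.26 (SE 0.19, adjusted p = 0.786). Cdkn1b, an inhibitor of cells leaving the cycle, read 6.29, 5.30, 5.70 and 6.33 in ventral arrays against 5.54, 6.13, 5.56 and 5.80 in dorsal arrays, with 0.14 (SE 0.28, adjusted p = 0.944). Its differences over the numbers ran from -0.83 to 0.74. Cdkn2c had 3.69, 3.38, 3.14 and 3.12 in ventral arrays against 3.11, 3.12, 3.28 and 3.99 in dorsal arrays, above the median on ventral array 1 and dorsal array 4.

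Genes of the same pathway outside the list were counted in 4 further lists, and none of their genes passed the adjusted test. Of 46 other mitotic genes 37 were lower in ventral tissue and 9 higher, with a median difference of -0.22. The share lower is 50.8% over all genes. The list mean was lower in ventral tissue in numbers 2 and 3, by differences of -0.47 and -0.38, and not in numbers 1 and 4, at 0.07 and 0.02. At an unadjusted p under 0.05 there were 3 lower (4.18% of all genes) and none higher (4.08% of all genes). Nuf2, a subunit of the NDC80 complex that binds kinetochores to microtubules, read 6.25, 6.71, 6.53 and 6.72 in ventral arrays against 6.72, 7.54, 7.61 and 7.55 in dorsal arrays. Dorsal arrays 2 to 4 lay well above every ventral array, dorsal array 1 did not, and the difference was -0.80 (SE 0.17, adjusted p = 0.243). Cit, the citron kinase of cytokinesis, differed by -0.50 (SE 0.16, adjusted p = 0.467), and Cks2, a small partner of cyclin-dependent kinases, by -0.49 (SE 0.18, adjusted p = 0.539). Foxm1, a transcription factor of mitotic genes, differed by 0.002 (SE 0.20), with a sign that turned when the arrays were centred or weighted.

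Of 38 other replication genes 26 were lower in ventral tissue (median -0.10), beside 50.8% of all genes. None had an unadjusted p under 0.05, where 4.18% of all genes were lower and 4.08% higher. Their list mean differed by -0.29 in number 3 and by -0.033 to 0.075 in the others. The smallest p-values belonged to Cdc45, which joins MCM and GINS (-0.49, SE 0.22), the origin recognition subunit Orc3 (-0.38, SE 0.18) and the maintenance methyltransferase Dnmt1 (-0.26, SE 0.14). Without number 1 the differences of Cdc45 and Orc3 were -0.29 and -0.21. Of 16 other regulators of G1 and the G1/S switch, 3 were lower (50.8% of all genes) and 13 higher in ventral tissue (median 0.13). Again none had an unadjusted p under 0.05. Their list mean differed by 0.33 in number 1 and 0.25 in number 4, and by -0.03 in number 2 and -0.08 in number 3. The smallest p-values there were those of E2f8, an atypical repressor E2F (-0.58, SE 0.29), E2f6, a repressor E2F (0.63, SE 0.40), and Cdk2, the partner of cyclin E (0.29, SE 0.20). Dorsal array 4 read 3.91 for E2f6, against 5.61, 6.20 and 5.63 in dorsal arrays 1 to 3, and without number 4 the difference was 0.08. The difference of Cdk2 was 0.12 without number 4, and that of E2f8 -0.26 without number 2.

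Other inhibitors and brakes held the widest single differences among the cell cycle lists, in both directions. Of 20 tested, 9 were lower (50.8% of all genes) and 11 higher in ventral tissue (median 0.06). At an unadjusted p under 0.05 there were 2 lower (4.18% of all genes) and 2 higher (4.08% of all genes). Btg2, an antiproliferative gene that responds to p53, read 4.33, 5.21, 4.50 and 5.18 in ventral arrays against 6.88, 5.70, 6.61 and 5.92 in dorsal arrays. All ventral arrays lay below all dorsal arrays, with a difference of -1.48 (SE 0.37, adjusted p = 0.311), a 2.78-fold lower signal in ventral tissue. Gadd45b, a stress-induced growth arrest gene, read 4.09, 4.07, 4.26 and 3.69 in ventral arrays against 3.35, 3.50, 3.65 and 3.41 in dorsal arrays. All ventral arrays lay above all dorsal arrays, with a difference of 0.55 (SE 0.14, adjusted p = 0.311), but 3 of 4 dorsal arrays were under their array median, where background limits a difference. Plk2, a polo-like kinase induced by stress and growth signals, differed by 1.06 (SE 0.35, adjusted p = 0.481), higher in ventral tissue in 3 of 4 numbers. Btg1, a relative of Btg2 named after its values were seen, was the other gene lower at that p, with a difference of -0.44 (SE 0.16, adjusted p = 0.542). Cdkn1c (p57), an imprinted inhibitor of growing embryonic tissue, differed by -0.01 (SE 0.18).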

How the data were processed

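Total RNA of microdissected tissue was amplified and hybridised to 8 arrays, per the labels' protocols. The deposited values are log2 intensities per gene, made by the authors with RMA in Affymetrix Expression Console, per the submitters' processing notes, with versions and array build not given in the sources used here. Tissue and replicate number were read from the sample titles. Rows were named by Entrez ID through the platform table, which gave 1 symbol for 24675 of 25429 rows, none for 754 and several for none.

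Genes above the array median on at least 4 of 8 arrays (12416) were fitted with limma 3.58.1 in R 4.3.3 (lmFit, eBayes with trend and robust, 2-sided), with the replicate number as a block. The embryos gave both tissues, per the labels, which do not tie a number to an embryo, so the numbers are not shown to pair the arrays. P-values were adjusted by the Benjamini-Hochberg method over all genes tested at a threshold of 0.05, and intervals are 95%. The fit was run on simulated arrays with known shifts and independent noise. These held no replicate effect and no array shift shared by genes, so they do not test the fit for those. The members and lists were chosen with earlier results of these data known. Values per array are given for the 5 members with the smallest unadjusted p in each group and for 11 members always shown, and the 3 smallest of each further list are named with Cdkn1c and Foxm1. Other genes were named after their values were seen. Alternatives were no block, a random block, other filters, centring, quantile normalization, a plain eBayes, array weights and leaving out each number. Promoter sequences are from RefSeq.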

Additional observations from a re-analysis of the deposited data

Results flagged for a closer look

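In each tissue, the 4 arrays of each member, of each other cell cycle gene named by rule and of each phase group mean were examined for 1 array standing apart by Dixon's criterion at 95%. Of 132 groups of arrays 8 stood apart, and chance gives about 1 in 20. The mean of the mitotic members was 7.32 in dorsal array 1, against 7.62 to 7.65 in the other dorsal arrays. Nuf2 was 6.72 in the same array, against 7.54 to 7.61. The spindle factor Tpx2 was 7.69 in ventral array 4, against 7.07 to 7.13 in the other ventral arrays, and the licensing factor Cdt1 was 4.99 in that array, against 4.46 to 4.53. Rrm1 was 7.16 in ventral array 2, against 7.46 to 7.49. In dorsal array 2, Mcm4 was 7.32, against 7.14 to 7.17, and Rfc3 was 7.20, against 6.55 to 6.64. Cdkn1c was 6.70 in dorsal array 4, against 7.47 to 7.56.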

How the results depend on the processing

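No member passed the adjusted threshold under any of 12 alternatives (smallest adjusted p 0.257). The order of the members depended on the replicate block. In limma without it, Mcm7 had the smallest adjusted p of the members (0.51), with Mki67 at 0.541. With a random block Mcm7 was again first (0.474), with Mki67 at 0.497. The adjusted p of Cks2 was 0.539 with the block and 0.869 without it. Over all genes, 0 passed with the replicate block, 4 without the replicate block, 4 with a random replicate block, 10 with the stricter filter and 0 to 9 when each number was left out. The median difference lay between -0.13 and -0.02 for G1/S members, -0.31 and -0.13 for mitotic members, and -0.33 and -0.12 for inhibitors when each number was left out. Of 414 alternative values of 35 named genes 397 kept their direction. Array weights turned Rbl1 to -0.020, E2f1 to -0.013 and Foxm1 to -0.041, and centring the arrays turned Foxm1 to -0.002. Leaving out each number gave ranges that crossed 0 for Cdkn1b (-0.057 to 0.466), Mcm2 (-0.23 to 0.30), Ccnd3 (-0.229 to 0.074), Foxm1 (-0.15 to 0.12), Pcna (-0.184 to 0.044), Cdk1 (-0.208 to 0.032), E2f1 (-0.12 to 0.19), Cdkn1c (-0.17 to 0.10) and Rbl1 (-0.21 to 0.24). The cause of these turns was not tested. Deviations of same-numbered arrays correlated at 0.02 to 0.12 over genes, and those of arrays with different numbers at -0.13 to 0.10, so the ranges overlapped. Of the same-numbered pairs 2 of 4 were over 0.1, and 5 of 8 arrays correlated best with their own number. Genes near the array median have signal close to background, where differences are limited.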

Other observations

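Some cell cycle genes outside the list, named after their values were seen, gave little signal or varied by array. Fen1, the flap endonuclease of lagging strand synthesis, lay between 2.57 and 2.98 and was above the median on no array. Cks2 read 6.41 in ventral array 2 against 4.43 to 4.91 in the other ventral arrays, and 6.70 in dorsal array 2 against 4.84 to 5.73 in the other dorsal arrays.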
